A study of Ovis aries with 2 samples.

Results

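The genes described here are the ligands and receptors of the 4 classical families of axon guidance, as far as they are listed in the count matrices of a single-nucleus RNA sequencing study of sheep cerebral cortex. They were chosen by symbol (semaphorins of classes 3 to 7, plexins, SLIT, ROBO, netrins, netrin-G, UNC5 receptors, EPHA and EPHB receptors, and ephrins), a rule that uses no measured value, though these families were picked for description with earlier results of the same data known. Of 13765 listed features with 12652 distinct symbols, 42 were members. They were 13 semaphorins, 3 plexins, 1 SLIT, 2 ROBO receptors, 1 netrin, 2 netrin-G genes, 2 UNC5 receptors, 9 EPHA and 4 EPHB receptors and 5 ephrins of class A. The RefSeq table of the assembly ARS-UI_Ramb_v3.0 names 68 genes of these families, and the other 26, among them all 3 class B ephrins, NTN1, UNC5B, SLIT1 and SLIT3, were not analysed here.

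The study asked how tissue handling affects the neural cell types recovered. According to the series description the tissue came from 1 adult ewe, and the labels give Rambouillet sheep of 18 to 36 months, a wildtype genotype, no treatment before death and the same batch for both libraries. Cortex was dissected after death and either taken straight to nuclei isolation (the pre-processed library) or first cleared of debris and red blood cells (the post-processed library). For the post-processed library the treatment label denies that removal while its title and the description state it, and the titles were followed here. There was 1 library per condition, so no test was possible and no p-value is given. All intervals are 95% intervals for counting error only.

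Guidance cues tell a growing axon where to turn, stop or branch, and in the adult cortex the same families take part in synapse organisation, glial migration and the contact between neurons and glia. Semaphorins signal through plexins, often with neuropilins as co-receptors. SLIT proteins are secreted and repel cells that carry ROBO receptors. Netrins attract through DCC and repel through UNC5 receptors, while the netrin-G proteins are tethered to the membrane and bind synaptic adhesion molecules. Ephrins are bound to the membrane as well and act on Eph receptor tyrosine kinases of a touching cell.

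The pre-processed library held 2125 nuclei with a median of 2524 unique molecular identifiers (UMIs, counts of single RNA molecules). In the post-processed library 494 of 905 barcodes reached 100 detected genes and were kept as nuclei, with a median of 667.5 UMIs. The libraries shared 0 barcodes. Clusters were named from marker genes, and each name means only that the cluster resembles that cell type. Before processing there were 1027 neuron-like, 357 astrocyte-like, 109 oligodendrocyte precursor-like, 178 oligodendrocyte-like, 85 microglia-like and 6 endothelial-like nuclei, and 363 stayed unnamed. After processing there were 179 microglia-like, 57 oligodendrocyte-like, 25 endothelial-like and 2 astrocyte-like nuclei, 231 unnamed ones, and 0 of 494 neuron-like ones, which allows a share of up to 0.607%. That limit takes the 231 unnamed nuclei as not neuron-like, although a shallow cluster stayed unnamed whatever its markers. Of the unnamed nuclei, 227 post-processed and 1 pre-processed ones formed 1 shallow cluster, number 5, at a median of 231 UMIs, whose closest class was microglia. The other 362 pre-processed and 4 post-processed ones formed cluster 1, at a median of 1235 UMIs. Its closest class was astrocyte, with neuron next, and the comparisons between classes leave it out.

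In the pre-processed cortex guidance genes took 142442 UMIs, 1.49% of that library, and 86.4% of those UMIs lay in neuron-like nuclei, which held 75.7% of all UMIs. A gene was said to lead in a class when its level, in counts per 1000000 UMIs of the class (CPM), was at least 2-fold above that in each of the other 4 classes of at least 50 nuclei. Of 40 members with at least 20 UMIs over these 5 classes, 17 led in neuron-like nuclei, 42.5% against 6.33% of all 7281 genes counted the same way. With classes taken from the marker UMIs of each nucleus, without clustering, 4 members led in neuron-like nuclei against a background of 1.23%. Another 3 led in oligodendrocyte precursor-like nuclei (background 2.57%), and 2 each in astrocyte-like (4.88%), oligodendrocyte-like (3.34%) and microglia-like nuclei (9.16%). The other 14 led in none, and EPHA1 with 7 UMIs and EPHA2 with 14 UMIs over the 5 classes were too sparse to be counted.

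**Figure D1:**
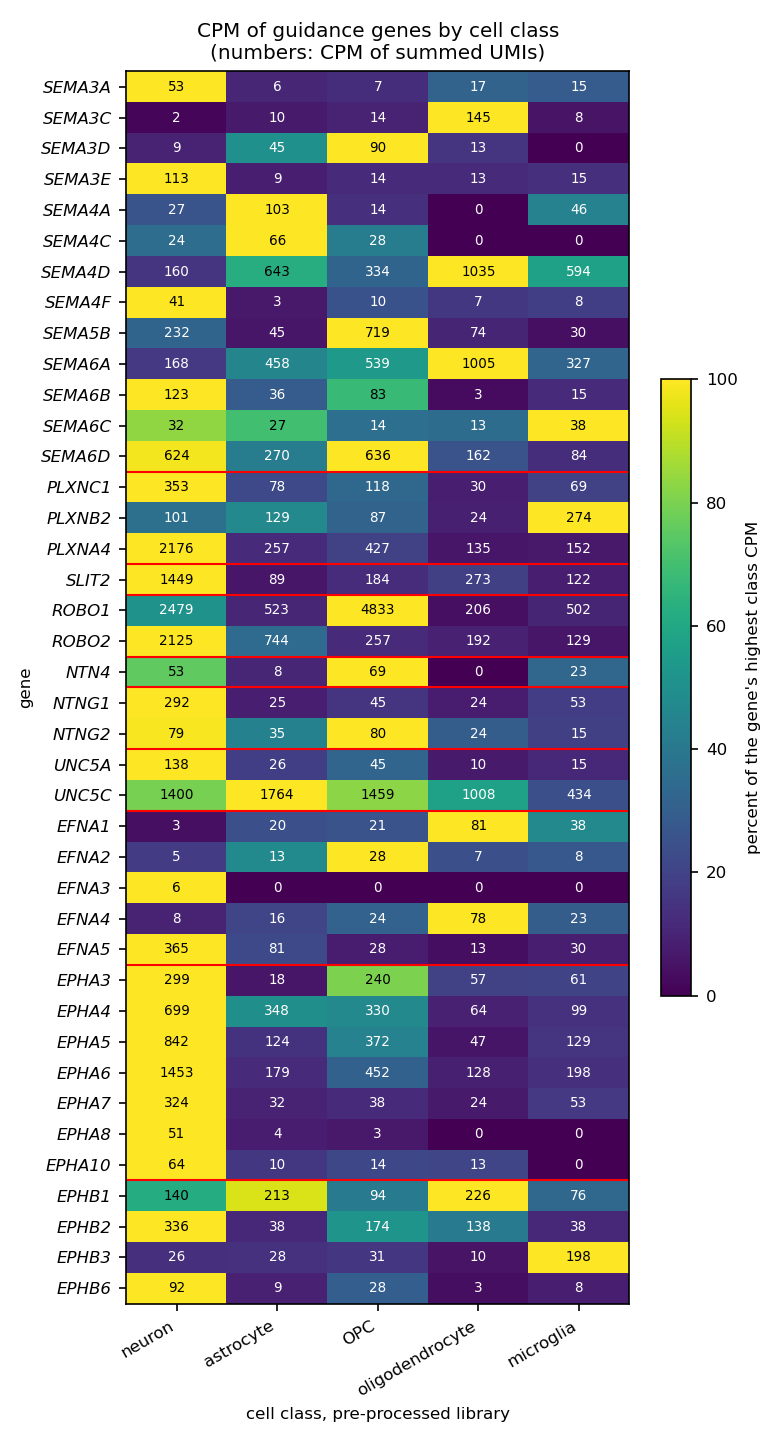
Heat map of the 40 counted guidance genes (rows, grouped by family with red lines between families) in 5 marker-named classes of the pre-processed library (columns). The printed numbers are CPM of summed UMIs and the colour is the percent of the gene's own highest class. PLXNA4, SLIT2 and most EPHA genes are brightest in the neuron column, while SEMA3C, SEMA4D and SEMA6A are brightest in oligodendrocyte-like nuclei and PLXNB2 and EPHB3 in microglia-like nuclei.

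Neuronal RNA was also counted in glial nuclei, and the glial values below stand beside it. SYT1, CAMK2A, GRIN1 and STMN2, neuronal genes that glia should lack, had 6.61% to 49.0% of their neuronal CPM in astrocyte-like nuclei. The range was 12.9% to 33.4% in oligodendrocyte precursor-like nuclei, 7.23% to 44.4% in oligodendrocyte-like nuclei and 13.5% to 72.5% in microglia-like nuclei. These 4 genes were picked after their values were seen, and a further neuronal marker, SNAP91, lay at 49.99% to 163% of its neuronal level. Of 39 members with at least 20 UMIs in neuron-like nuclei, 25 were at or under the highest of the 4 reference genes in astrocyte-like, 15 in precursor-like, 31 in oligodendrocyte-like and 30 in microglia-like nuclei, and no expression by those glia is read from such values. Above the neuronal level itself stood 12 members in astrocyte-like, 14 in precursor-like, 7 in oligodendrocyte-like and 9 in microglia-like nuclei. What part free or neighbouring RNA has in any glial level was not tested.

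Among the secreted semaphorins of class 3, which mostly act through neuropilin and plexin complexes, SEMA3A and SEMA3E led in neuron-like nuclei, SEMA3C in oligodendrocyte-like and SEMA3D in precursor-like nuclei. SEMA3A was at 52.6 CPM in neuron-like nuclei and at 15.2 CPM in microglia-like nuclei, the next class, where it rested on 2 UMIs, so that the log2 difference of 1.47 has an interval of -0.07 to 4.84. SEMA3E stood at 113 CPM in neuron-like nuclei and between 9.47 and 15.2 CPM in the glial classes. SEMA3C was at 145 CPM in oligodendrocyte-like nuclei (43 UMIs) against 13.9 CPM in precursor-like and 2.20 CPM in neuron-like nuclei. SEMA3D was highest in precursor-like nuclei at 90.3 CPM, with 45.5 CPM in astrocyte-like and 8.54 CPM in neuron-like nuclei.

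Several of the membrane-bound semaphorins of classes 4 to 6 were higher in glial classes than in neuron-like nuclei. SEMA4D, a ligand of class B plexins, was at 1035 CPM (interval 923 to 1158) in oligodendrocyte-like nuclei. It was at 643 CPM in astrocyte-like, 594 CPM in microglia-like, 334 CPM in precursor-like and 160 CPM in neuron-like nuclei, so every glial class stood above neurons. SEMA6A, a ligand of class A plexins, followed a similar order in the oligodendrocyte lineage, with 1005 CPM in oligodendrocyte-like (894 to 1126), 539 CPM in precursor-like and 458 CPM in astrocyte-like nuclei against 168 CPM in neuron-like nuclei. SEMA4A (103 CPM) and SEMA4C (66.3 CPM) led in astrocyte-like nuclei, against 26.9 and 23.7 CPM in neuron-like nuclei, but at 2.10-fold and 2.26-fold above the next class both were close to the limit. SEMA5B led in precursor-like nuclei at 719 CPM (625 to 824), 3.10-fold its level in neuron-like nuclei, the next class.

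SEMA6D was at about the same level in precursor-like (636 CPM) and neuron-like nuclei (624 CPM), and at 270 CPM in astrocyte-like nuclei. SEMA4F led in neuron-like nuclei at 41.3 CPM against 10.4 CPM in precursor-like nuclei. SEMA6B stood at 123.1 CPM in neuron-like and 83.4 CPM in precursor-like nuclei, and the interval of that difference reached 0. SEMA6C was low everywhere, from 13.5 to 38.1 CPM, and its 2 highest classes, microglia-like and neuron-like, did not differ beyond counting error.

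Of the 3 plexins, the semaphorin receptors, 2 led in neuron-like nuclei and 1 in microglia-like nuclei. PLXNA4 was at 2176 CPM in neuron-like nuclei, 5.07-fold above the 427 CPM of precursor-like nuclei, and between 135 and 257 CPM in the other glial classes. PLXNC1 was at 353 CPM in neuron-like nuclei against 118 CPM in precursor-like nuclei. PLXNB2, a class B plexin, was highest in microglia-like nuclei at 274 CPM (192 to 379), with 129 CPM in astrocyte-like, 101 CPM in neuron-like and 23.6 CPM in oligodendrocyte-like nuclei. In microglia-like nuclei PLXNB2 was above its neuronal level, and the other 2 plexins were under theirs.

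The ligand SLIT2 and its receptors were abundant in neurons, and ROBO1 also marked the precursor-like nuclei. SLIT2 was at 1449 CPM in neuron-like nuclei, 5.27-fold above the 273 CPM of oligodendrocyte-like nuclei. ROBO2 was at 2125 CPM in neuron-like nuclei and at 744 CPM in astrocyte-like nuclei, with 129 to 257 CPM in the remaining classes. ROBO1 was at 4833 CPM (4582 to 5094) in precursor-like nuclei, 1.95-fold its neuronal 2479 CPM and thus just short of the 2-fold used here. Astrocyte-like nuclei had 523 CPM of ROBO1, microglia-like 502 CPM and oligodendrocyte-like 206 CPM. ROBO2 was at 257 CPM in precursor-like nuclei, under its neuronal level, whereas ROBO1 was above its own.

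Of the netrin system, UNC5C, a repulsive netrin receptor, was the most evenly spread member. It was at 1764 CPM in astrocyte-like, 1459 CPM in precursor-like, 1401 CPM in neuron-like, 1008 CPM in oligodendrocyte-like and 434 CPM in microglia-like nuclei. Precursor-like and neuron-like nuclei did not differ beyond counting error (1323 to 1606 and 1373 to 1428 CPM). Its relative UNC5A led in neuron-like nuclei with 138 CPM against 45.2 CPM in precursor-like nuclei. NTN4, a netrin related to laminins, was at 69.5 CPM in precursor-like and 52.5 CPM in neuron-like nuclei. The membrane-tethered NTNG1 led in neuron-like nuclei at 292 CPM against 53.3 CPM in microglia-like nuclei, while NTNG2 was at 79.9 CPM in precursor-like and 79.1 CPM in neuron-like nuclei.

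Of the 5 class A ephrins, membrane-tethered ligands of EPHA receptors, 1 led in neuron-like, 1 in oligodendrocyte-like and 1 in precursor-like nuclei. EFNA5 led in neuron-like nuclei at 365 CPM against 80.5 CPM in astrocyte-like nuclei and 13.5 to 30.5 CPM elsewhere. EFNA4 led in oligodendrocyte-like nuclei at 77.5 CPM on 23 UMIs. EFNA1 was highest there too, at 80.9 CPM on 24 UMIs, but only 1.97-fold above microglia-like nuclei. EFNA2 led in precursor-like nuclei at 27.8 CPM on 8 UMIs, 2.15-fold above astrocyte-like nuclei, but its interval included no difference. EFNA3 had all 44 of its UMIs of the 5 classes in neuron-like nuclei, at 6.06 CPM.

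Of the 9 EPHA receptors, 6 led in neuron-like nuclei. EPHA6 was at 1453 CPM in neuron-like and 452 CPM in precursor-like nuclei. EPHA5 was at 842 CPM against 372 CPM, EPHA7 at 324 CPM against at most 53.3 CPM in any glial class, EPHA10 at 64.2 CPM against 13.9 CPM, and EPHA8 at 50.6 CPM against 3.79 CPM in astrocyte-like and 3.47 CPM in precursor-like nuclei. EPHA4 stood at 699 CPM in neuron-like, 348 CPM in astrocyte-like and 330 CPM in precursor-like nuclei, only just 2-fold apart. EPHA3 was close in neuron-like (299 CPM) and precursor-like nuclei (240 CPM) and at 18.0 to 60.9 CPM elsewhere. EPHA1 and EPHA2 were too sparse to be counted. The 14 UMIs of EPHA2 included 6 in the 85 microglia-like nuclei, 6 in the 357 astrocyte-like nuclei and 1 in the 1027 neuron-like nuclei.

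Of the 4 EPHB receptors, EPHB6 and EPHB2 were highest in neuron-like nuclei. EPHB6, whose kinase domain is inactive, led in neuron-like nuclei at 92.5 CPM against 27.8 CPM in precursor-like nuclei. EPHB2 was at 336 CPM in neuron-like, 174 CPM in precursor-like and 138 CPM in oligodendrocyte-like nuclei. EPHB1 was at 226 CPM in oligodendrocyte-like and 213 CPM in astrocyte-like nuclei, which overlapped within counting error, and at 140 CPM in neuron-like nuclei. EPHB3 led in microglia-like nuclei at 198 CPM (129 to 290), against 31.3 CPM in precursor-like, 28.4 CPM in astrocyte-like and 26.3 CPM in neuron-like nuclei.

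Shares of nuclei with at least 1 UMI of a gene were computed after thinning every nucleus to 900 UMIs, which left out 0 pre-processed nuclei. Median depths were 5277 UMIs for neuron-like and 1291 UMIs for microglia-like nuclei before thinning. Of 39 members with at least 20 UMIs in neuron-like nuclei, 22 were seen in at least 10% of those nuclei (56.4%, background 22.2% of 6830 genes), and 34 without thinning (87.2%, background 66.7%). PLXNA4 was seen in 76.1% of neuron-like nuclei (95.03% unthinned) and ROBO2 in 73.1% (92.0% unthinned). ROBO1 was seen in 94.5% of precursor-like nuclei (99.1% unthinned) against 60.2% of neuron-like nuclei (82.5% unthinned). SEMA4D was seen in 57.9% of oligodendrocyte-like nuclei (72.5% unthinned) and 12.4% of neuron-like nuclei (50.5% unthinned). EPHB3 was seen in 20% of microglia-like nuclei (25.9% unthinned) and 2.43% of neuron-like nuclei (14.7% unthinned). As a background, CAMK2A was seen in 27.5% of precursor-like, 34.3% of oligodendrocyte-like and 43.5% of microglia-like nuclei (53.2%, 48.9% and 50.6% unthinned), so the microglia-like shares of EPHB3 and of PLXNB2, also 20% (35.3% unthinned), lay under that background and are read here only by their CPM against neurons.

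Within neurons, the guidance genes divided excitatory-like (811) from inhibitory-like nuclei (216). Of 39 members with at least 20 UMIs in these nuclei, 7 were at least 2-fold higher in excitatory-like nuclei (17.9%, background 10.2% of 6830 genes) and 8 at least 2-fold lower (20.5%, background 8.13%). The median log2 ratio of the members was 0.03, against -0.03 over all genes. Higher in excitatory-like nuclei were NTNG1, NTNG2, SEMA3A, SEMA5B, SLIT2, EPHB2 and EPHB6. Lower were ROBO1, SEMA3D, SEMA6A, SEMA6C, SEMA6D, NTN4, EPHA3 and EPHA10.

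NTNG1 was at 345 CPM in excitatory-like and 34.7 CPM in inhibitory-like nuclei, a log2 ratio of 3.30 (2.88 to 3.78). SEMA5B was at 270 CPM against 48.4 CPM, EPHB6 at 106 CPM against 29.0 CPM and EPHB2 at 375 CPM against 148 CPM. SLIT2 was at 1614 CPM against 653 CPM, while its receptor ROBO1 went the other way, at 1923 CPM against 5173 CPM, a log2 ratio of -1.43 (-1.47 to -1.38). The ligand was thus higher in 1 kind of neuron and this receptor in the other, whereas ROBO2, at 1944 CPM against 3000 CPM, stayed under 2-fold. SEMA6D was at 470 CPM against 1368 CPM and SEMA6A at 113 CPM against 431 CPM. EPHA3 was at 224 CPM against 662 CPM, and SEMA3D rested on 18 against 44 UMIs. NTNG2 was at 90.1 CPM against 25.8 CPM and SEMA3A at 58.0 CPM against 26.6 CPM, and SEMA3A was under 2-fold (log2 ratio 0.88) when each nucleus weighed the same. NTN4 was at 41.4 CPM against 106 CPM, SEMA6C at 23.6 CPM against 70.9 CPM and EPHA10 at 53.2 CPM against 118 CPM.

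**Figure D2:**
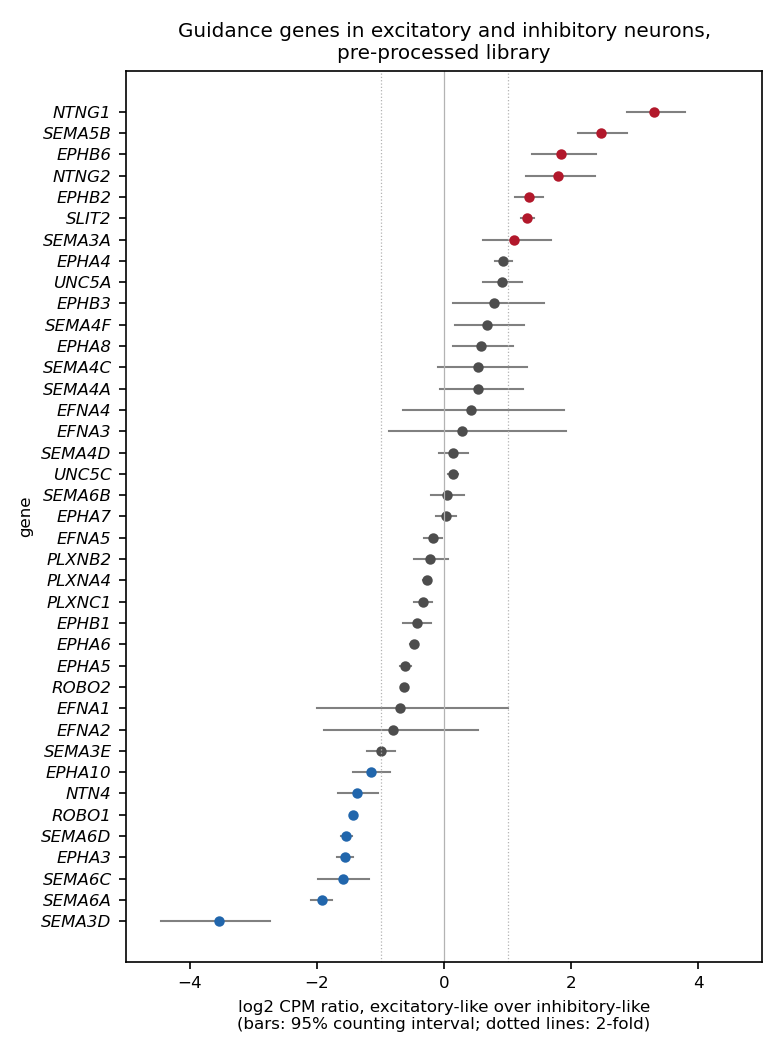
Log2 ratio of CPM in excitatory-like over inhibitory-like nuclei of the pre-processed library for the 39 guidance genes with at least 20 UMIs, with 95% counting intervals. Red points are at least 2-fold higher in excitatory-like nuclei (7 genes, NTNG1 at the top), blue points at least 2-fold lower (8 genes, SEMA3D at the bottom), and grey points under 2-fold.

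By neuron cluster, members that differed between the 2 kinds were often high in only some clusters of that kind. None of the members took part in the clustering, but their levels by cluster are a description only. Excitatory-like clusters were numbers 0 (435 nuclei), 6 (154), 7 (128) and 10 (94), and inhibitory-like ones 8 (124) and 11 (92). In cluster 6 all 4 markers of layer 6 corticothalamic neurons (FOXP2, SYT6, TLE4 and TBR1) were raised over the other neuron clusters. Cluster 7 had RORB among its leading genes, cluster 8 raised all 5 markers of RELN/VIP-kind interneurons and cluster 11 all 5 of the SST/LHX6 kind. Cluster 10 had the deepest nuclei, with a median of 12922 UMIs.

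NTNG1 was at 1103 CPM in cluster 7 and 731 CPM in cluster 10, against 141 CPM in cluster 0 and 99.7 CPM in cluster 6, so it was not a general excitatory gene. SEMA3E showed the reverse order, with 556 CPM in cluster 6, 269 CPM in the SST/LHX6 cluster, 121 CPM in the RELN/VIP cluster and at most 43.8 CPM in the other 3. SEMA3E and NTNG1 were each among the 10 leading genes of their cluster (6 and 7) although neither was used to make it. SEMA5B was also highest in cluster 6 (654 CPM), and EPHB1 as well (422 CPM against 20.7 to 269 CPM). SLIT2 was at 2051 CPM in cluster 7 and 1909 CPM in cluster 0, but at 503 CPM in cluster 6, under the 1191 CPM of the inhibitory-like SST/LHX6 cluster. The RELN/VIP cluster had 146 CPM of SLIT2, the lowest of the 6.

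ROBO1 was even across both inhibitory-like clusters (5116 and 5233 CPM), and cluster 10 had 3962 CPM against 731 to 1607 CPM in the other excitatory-like ones. Cluster 10 also stood with the inhibitory-like clusters for SEMA6D (1193 CPM against 1402 and 1332 CPM, and 227 to 406 CPM elsewhere). It had the highest EPHA6 of all (2637 CPM against 512 CPM in cluster 6) and the highest SEMA3A (129 CPM). EPHA3 was highest in the RELN/VIP cluster at 927 CPM, against 381 CPM in the SST/LHX6 cluster. SEMA6A and SEMA3D leaned to the SST/LHX6 cluster, SEMA6A with 650 CPM against 225 CPM in the RELN/VIP cluster and SEMA3D with 73.1 CPM against 0 UMIs. EPHA4 was highest in cluster 7 (1322 CPM) and lowest in the RELN/VIP cluster (222 CPM).

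Splitting the clusters more finely, at resolution 1.0, gave higher levels in smaller clusters. SEMA3E reached 1118 CPM (1015 to 1228) in a cluster of 67 nuclei led by NPFFR2, SEMA3E and SYT6. That cluster stayed unnamed at this resolution, with neuron as its closest class. NTNG1 reached 2403 CPM in a cluster of 21 nuclei, EPHA3 1412 CPM in a cluster of 53 and ROBO1 6756 CPM in a cluster of 71. SEMA3D was at 198 CPM in a cluster of 36 nuclei, which held 44 of its UMIs.

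**Figure D3:**
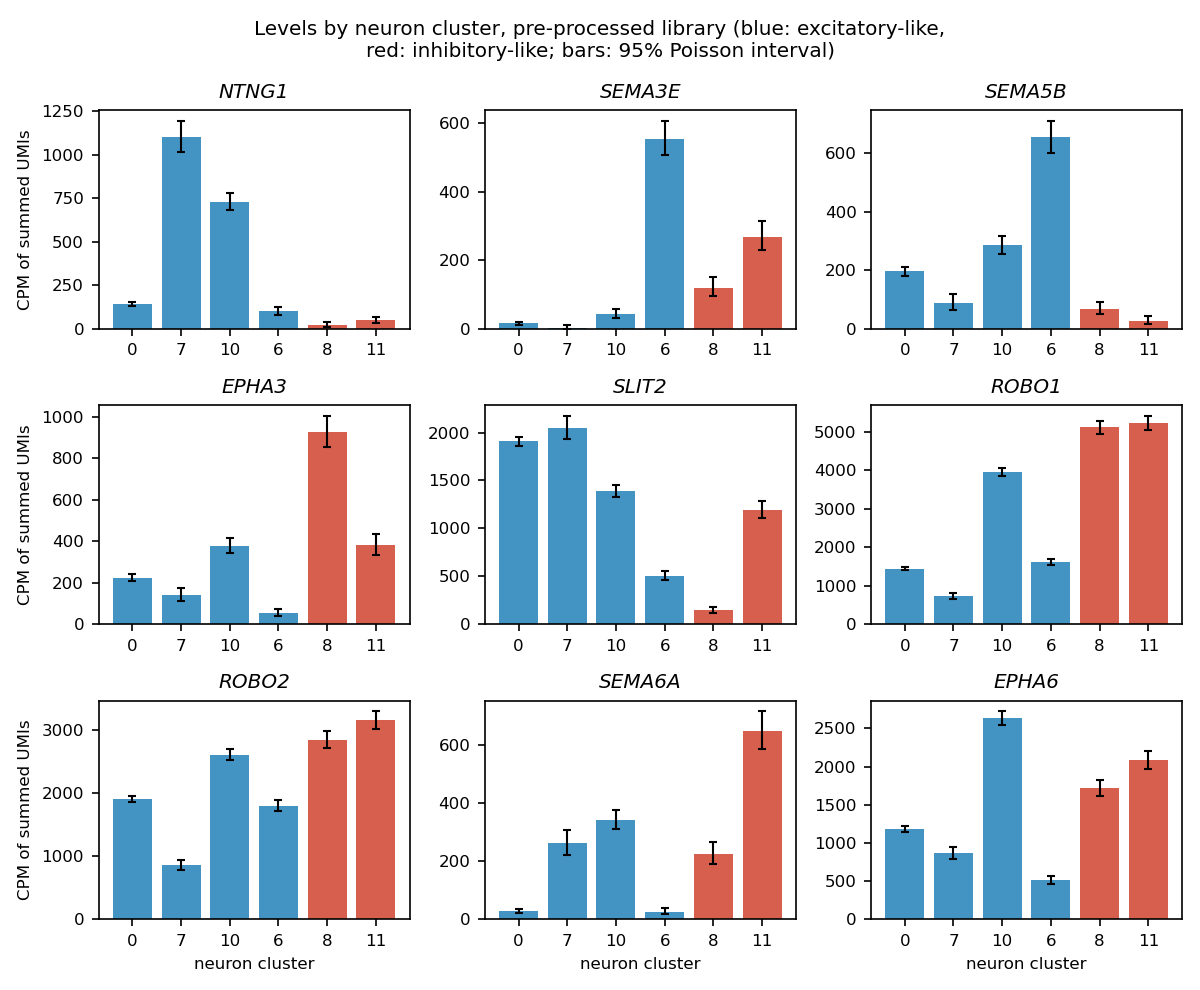
CPM of 9 guidance genes in the 6 neuron clusters of the pre-processed library (bars, blue excitatory-like and red inhibitory-like, each axis from 0 and on its own scale), with 95% Poisson intervals. NTNG1 stands out in clusters 7 and 10, SEMA3E and SEMA5B in cluster 6, EPHA3 in cluster 8, and ROBO1 in clusters 8, 11 and 10.

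Between the libraries, most guidance genes were at lower levels after processing, and PLXNB2, EPHB3 and SEMA3C were among the few at higher ones. Members made up 0.3002% of the UMIs of the post-processed nuclei (2297 UMIs) and 1.49% before. Of 41 members with at least 20 UMIs over both libraries, 5 were at least 2-fold higher after processing (12.2%, background 30.4% of 7614 genes) and 28 at least 2-fold lower (68.3%, background 24.7%). The median log2 ratio was -2.95 over the members and 0.33 over all genes. Since neuron-like nuclei made up 48.3% of the pre-processed and 0 of 494 post-processed nuclei, fewer cells of a type and less RNA per cell cannot be told apart in these sums. SYT1 over all nuclei was at 7338 CPM before and 51.0 CPM after processing, and GRIN1 had 0 UMIs after it.

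The differences were large for several neuronal receptors. PLXNA4 went from 1770 to 31.4 CPM (log2 ratio -5.79, -6.46 to -5.24), ROBO2 from 1785 to 24.8 CPM (-6.13, -6.90 to -5.52) and EPHA6 from 1198 to 36.6 CPM. ROBO1 was at 2208 CPM before and 227 CPM after, where 174 UMIs lay in 52 nuclei, 55 of them in 1 astrocyte-like and 54 in 1 microglia-like nucleus. SLIT2 was at 1191 and 83.6 CPM. Another 6 members had 0 UMIs after processing. Against 3 counts, these were at least 27.4-fold lower for SEMA6B, 19.8-fold for EPHB6, 18.4-fold for NTNG2, 10.4-fold for EPHA8, 8.81-fold for SEMA4F and 1.30-fold for EFNA3. EFNA3 and EFNA2 (63 UMIs before and 2 after) were sparse. With 5 counts added instead of 0.5, the log2 ratios of both turned positive, though under 2-fold. The other 15 lower members, from SEMA3D (-1.08) to UNC5A (-5.91), included EPHA3, EPHA4, EPHA5, EPHA7, EPHA10, EPHB2, EFNA5, NTNG1, PLXNC1, SEMA4C, SEMA5B, SEMA6C and SEMA6D. EPHA1, with 7 UMIs before and 0 after, was not counted.

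The 5 members higher after processing were EPHA2, SEMA3C, EPHB3, EFNA4 and PLXNB2. PLXNB2 was at 105 CPM before and 261 CPM after (1.31, 1.09 to 1.53), EPHB3 at 28.9 and 135 CPM (2.22, 1.88 to 2.55) and SEMA3C at 8.45 and 47.1 CPM (2.49, 1.87 to 3.06). EFNA4 had 115 UMIs before and 28 after (1.63, 0.96 to 2.21), and EPHA2 at 1.57 and 30.1 CPM on 15 and 23 UMIs. The call ended for PLXNB2 (log2 ratio 0.70) when libraries were scaled by the median of gene ratios, and for EFNA4 (0.98) when each nucleus weighed the same. Members under 2-fold included SEMA4D (254 and 374 CPM) and SEMA6A (240 and 357 CPM), both somewhat higher after processing. EFNA1, SEMA3A, SEMA4A, NTN4 and EPHB1 had log2 ratios from 0.96 to -0.72. SEMA3E, at 91.3 and 118 CPM, owed 58 of its 90 post-processed UMIs to the same astrocyte-like nucleus that carried 55 ROBO1 UMIs. UNC5C was at 1401 CPM before and 652 CPM after (-1.10, -1.23 to -0.97), a smaller difference than that of any other member with over 2000 pre-processed UMIs that was lower after processing. With only the 213 post-processed nuclei of at least 904 UMIs, the depth of the shallowest pre-processed nucleus, 5 members were higher (background 29.8%) and 26 lower (background 25%), and UNC5C was at -0.98, under 2-fold.

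**Figure D4:**
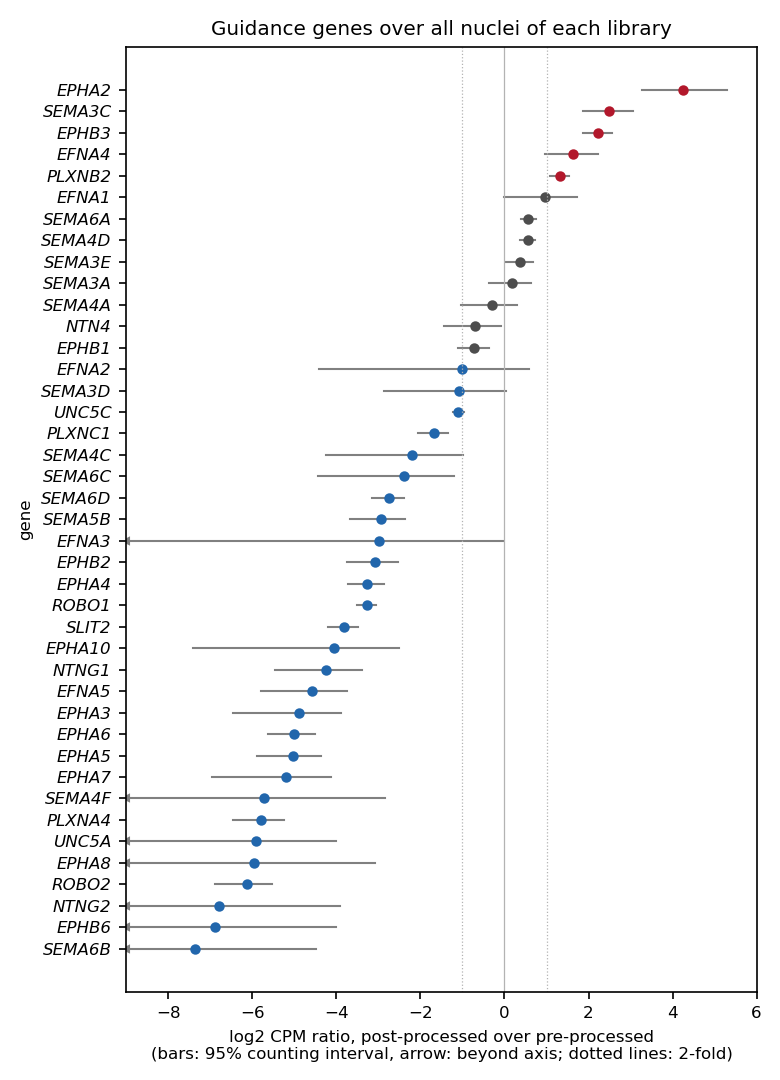
Log2 ratio of CPM over all nuclei, post-processed over pre-processed, for the 41 counted guidance genes, with 95% counting intervals. Red points are at least 2-fold higher after processing (5 genes, EPHA2 at the top), blue points at least 2-fold lower (28 genes), grey points under 2-fold. Intervals that end in an arrow at the left belong to genes with 0 or 1 UMIs after processing.

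Within microglia-like nuclei (85 before and 179 after processing) both genes that led in that class stayed under 2-fold, with intervals that included no difference. PLXNB2 was at 274 CPM before and 318 CPM after (log2 ratio 0.20, -0.32 to 0.78), and EPHB3 at 198 and 168 CPM (-0.26, -0.89 to 0.46). Of 19 members with at least 20 UMIs, 6 were at least 2-fold lower (31.6%, background 12.2% of 4033 genes), and 2 were at least 2-fold higher (10.5%, background 10.2%). Each of the 6 was at 699 CPM or more in neuron-like nuclei. So were SLIT2 (1449 CPM) and UNC5C (1401 CPM), which stayed under 2-fold in microglia-like nuclei (log2 ratios -0.65 and 0.32). ROBO1 was at 502 and 178 CPM, and at 70.4 CPM after processing without the nucleus that held 54 of 88 UMIs. ROBO2 was at 129 and 24.3 CPM, PLXNA4 at 152 and 30.4 CPM, EPHA6 at 198 and 44.5 CPM, EPHA5 at 129 and 20.2 CPM, and EPHA4 at 99.0 and 34.4 CPM.

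Pan-neuronal marker RNA in the same nuclei was lower after processing as well, and so was excitatory marker RNA (1302 and 561 CPM). The sum of 12 inhibitory markers went the other way, with 1865 CPM before and 2836 CPM after (medians over nuclei 885 and 0 CPM). Of these 12, however, 7 were detected before and only 3 after, and RELN went from 68.5 to 6.07 CPM. The higher sum is therefore not read as more interneuron RNA. The 8 pan-neuronal markers summed to 3830 CPM before processing, all with UMIs (median over nuclei 3701 CPM, highest 12060 CPM). After processing they summed to 2174 CPM (median 1898 CPM, highest 10616 CPM), with 5 of 8 detected and GRIN1, STMN2 and NEFM at 0. SYT1 was at 1218 CPM before and 46.6 CPM after, CAMK2A at 936 and 2.02 CPM. The part of neuronal RNA in the 6 lower values was not tested. The 2 higher members, SEMA3A (2 UMIs before, 27 after in 21 nuclei) and SEMA3C (1 and 20 UMIs), had intervals that included no difference.

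Oligodendrocyte RNA was also present in this class. The 5 oligodendrocyte markers, all detected, summed to 2314 CPM before and 2670 CPM after processing (medians over nuclei 913 and 652 CPM), with UGT8 at 792 and 838 CPM, and its part in these values was not tested. At resolution 1.0 only 58 of the 85 and 152 of the 179 nuclei kept the microglia-like name, and 27 of each fell to an oligodendrocyte-like cluster. Counted over the nuclei that kept the name, UNC5C was at 239 CPM before and 166 CPM after processing instead of 434 and 547 CPM. SEMA6A was at 140 and 72.2 CPM instead of 327 and 237 CPM, and SEMA4D at 365 and 258 CPM instead of 594 and 336 CPM. In the same nuclei PLXNB2 was at 365 and 411 CPM and EPHB3 at 281 and 195 CPM. UNC5C was also unevenly spread, with its 270 post-processed UMIs in 36 of 179 nuclei.

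In oligodendrocyte-like nuclei (178 before and 57 after) the members with the most UMIs stayed under 2-fold. SEMA6A was at 1005 CPM before and 718 CPM after (log2 ratio -0.48, -0.83 to -0.15), SEMA4D at 1035 and 654 CPM (-0.66, -1.02 to -0.32), UNC5C at 1008 and 1279 CPM (0.34, 0.07 to 0.62) and EPHB1 at 226 and 244 CPM. EFNA4 stood at 77.5 and 79.0 CPM. Of 17 members with at least 20 UMIs, 7 were at least 2-fold lower (41.2%, background 13.1% of 2932 genes) and 1 higher (5.88%, background 4.26%). Lower were EFNA1, EPHA6, PLXNA4, ROBO2, SEMA3C, SEMA6D and SLIT2.

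PLXNA4 was at 135 and 14.4 CPM there, ROBO2 at 192 and 28.7 CPM, EPHA6 at 128 and 14.4 CPM and SLIT2 at 273 and 108 CPM. The 8 pan-neuronal markers summed to 1747 CPM before processing, all detected, and to 488 CPM after it with GRIN1, NEFL and NEFM at 0 (medians over nuclei 1645 and 293 CPM). CAMK2A had 170 UMIs before and 0 after. The 12 inhibitory markers summed to 6750 CPM before, with 4 detected, and to 7959 CPM after, with 2 detected. RELN had 4 of the 1108 UMIs after processing, so nearly all of that sum lay in 1 other gene. It is not read as neuronal RNA. The part of neuronal RNA in the lower values was not tested. SEMA3C, which led in this class, was at 145 and 57.5 CPM on 43 and 8 UMIs, and EFNA1 rested on 24 and 3 UMIs. For SEMA6D, 35 of 48 pre-processed UMIs lay in 1 nucleus, and without it the level was 44.1 CPM, under the 57.5 CPM after processing. The 1 higher gene, SEMA3E, had 4 UMIs before and 24 after, of which 18 lay in 1 nucleus, and without that nucleus it was at 44.2 CPM against 13.5 CPM.

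**Figure D5:**
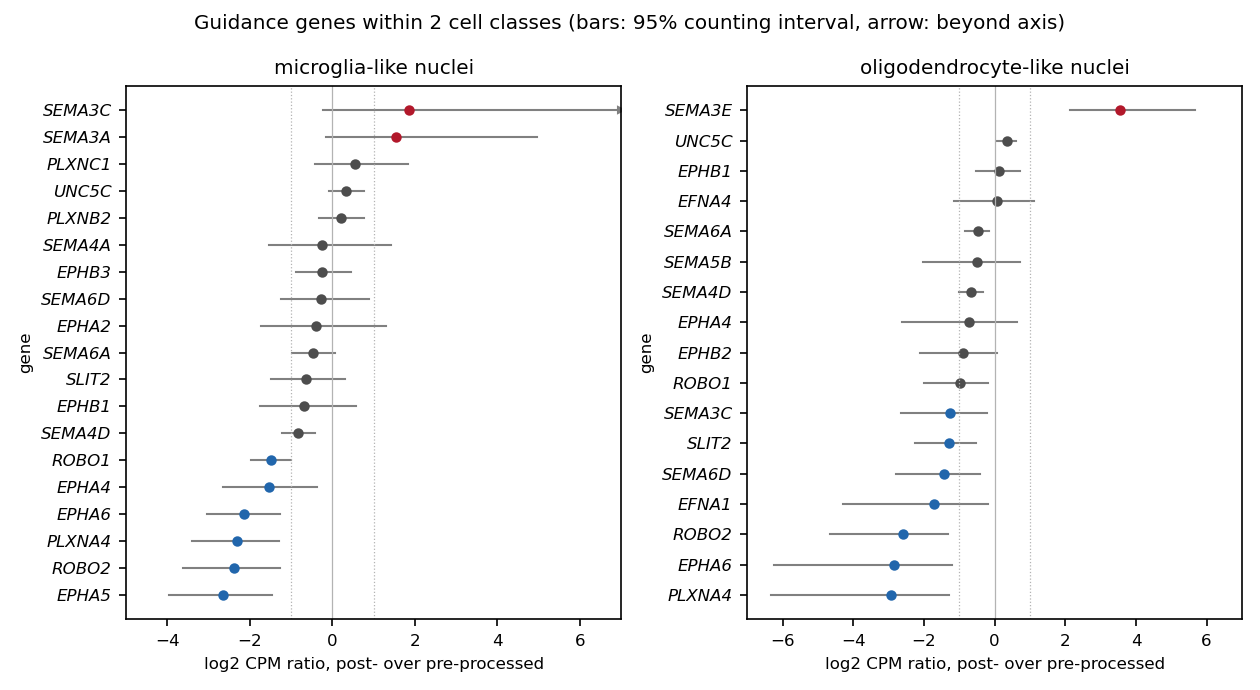
Log2 ratio of CPM, post-processed over pre-processed, within microglia-like (19 genes, left) and oligodendrocyte-like nuclei (17 genes, right), with 95% counting intervals. Red points are at least 2-fold higher after processing, blue points at least 2-fold lower. PLXNB2, EPHB3 and UNC5C lie near 0 on the left and UNC5C, EPHB1 and EFNA4 on the right, while PLXNA4, ROBO2 and EPHA6 are among the blue points of both.

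Other genes of the pathway were taken from 2 lists. Many genes of both lists, among them DCC, NRP1, RHOA and RAC1, were not analysed here, and the counts below leave them out. Of 12 analysed co-receptors and other cues, 10 had enough UMIs, and 0 of them led in neuron-like nuclei (background 6.33% of all genes). BOC, a co-receptor of hedgehog signals, led in astrocyte-like nuclei (background 4.88%), the contactin CNTN1 in precursor-like nuclei (5524 CPM, background 2.57%), and NEO1, a netrin and RGM receptor (1524 CPM), and MET in oligodendrocyte-like nuclei (background 3.34%). Over all nuclei 2 of 10 were higher after processing, NRP2 (128 and 274 CPM), a semaphorin co-receptor, and NEO1 (298 and 609 CPM), and 6 of 10 were lower, among them the netrin receptor DSCAM (3255 and 44.4 CPM), where 30.4% of all genes were higher and 24.7% lower. NEO1 stayed near its level within oligodendrocyte-like nuclei (1524 and 1566 CPM). LRRC4, the partner of NTNG2, was at 99.1 CPM in neuron-like nuclei.

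Of 31 cytoplasmic effectors, all counted, CRMP1, NGEF and KALRN were among those that led in neuron-like nuclei, while 3 led in microglia-like (SRGAP1, MICAL1 and CDC42), and 1 each in oligodendrocyte-like (DPYSL2) and astrocyte-like nuclei (CHN2). The share of all genes that led was 9.16% in microglia-like, 3.34% in oligodendrocyte-like and 4.88% in astrocyte-like nuclei, so such small counts are read only as the genes they name. SRGAP1, which acts downstream of ROBO receptors, was at 2124 CPM in microglia-like nuclei against 313 CPM in neuron-like nuclei, and at 2785 CPM in microglia-like nuclei after processing. DPYSL2, a mediator of semaphorin signals, was at 2792 CPM in oligodendrocyte-like and 563 CPM in neuron-like nuclei. NGEF, an exchange factor that acts behind EPHA receptors, was at 223 CPM in neuron-like nuclei and CHN1, which acts behind EPHA4, was higher in excitatory-like (1339 CPM) than in inhibitory-like nuclei (357 CPM). Over all nuclei 6 of 31 effectors were higher and 12 lower after processing, against 30.4% and 24.7% of all genes, with a median log2 ratio of -0.38 against 0.33 over all genes.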

How the data were processed

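The deposited matrices hold whole-number UMI counts per gene and barcode that the authors did not normalize, as their values show. DRAGEN is named in the submitters' processing notes. Its version and the genome build were not given in the sources used here, nor was the barcode calling rule. The study states about 5000 nuclei per condition, and the files hold 2125 and 905 barcodes. The shallowest barcodes had 904 and 44 UMIs, and UMI totals were 9580441 and 794203.

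Barcodes with at least 100 detected genes of both libraries were log-normalized to 10000 and clustered jointly (Seurat 5.3.0, R 4.3.3) with 1976 variable genes, being the top 2000 without 24 guidance genes, on 30 principal components at Louvain resolution 0.5. Scrublet, through scanpy 1.11.5, called 4 and 0 doublets, which is practically none, and none were removed. Clusters were named from listed markers. At least 3 had to be raised 1.5-fold over the 25th percentile of the other clusters, with no more markers of another class among the 10 leading genes. A shallow cluster, with median UMIs below the library median divided by 2, stayed unnamed whatever its markers. This naming rule was written after the clusters were seen. The guidance families, marker lists and pathway lists were chosen with earlier results of these data known, although members follow from their symbols alone.

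UMIs were summed per class and library and given as counts per 1000000 UMIs (CPM) with exact Poisson intervals. Ratios carry 0.5 added counts and exact conditional binomial intervals, and genes needed 20 UMIs over the groups compared. Shares of nuclei carry exact Clopper-Pearson intervals in the underlying tables, and a share or level of 0 is bounded by 3 counts. A difference of at least 2-fold was counted, with no test, since there was 1 library per condition. The calculations were tested on simulated data. Named with values were members with at least 200 pre-processed UMIs, those leading in a class, and those at least 2-fold higher after processing or changed within 1 of 2 glial classes. Levels of different genes were not ranked, because UMIs per gene followed the gene's genomic span in the pre-processed library (Spearman 0.768 over 40 members, and 0.12 over 22 members in the post-processed library, across genes, which are not independent). No genome or protein sequence was used here.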

Additional observations from a re-analysis of the deposited data

Results flagged for a closer look

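Guidance genes were also counted in data that no comparison used. The 411 post-processed barcodes with fewer than 100 detected genes held 83 UMIs of members among 28995 UMIs, or 2863 CPM (95% Poisson interval 2280 to 3549). Among the nuclei kept from that library members made up 0.3002% of UMIs. The barcodes are listed here only because no comparison used them. SEMA6A had 15 of these UMIs, SEMA4D 13, PLXNB2 12, UNC5C 10 and ROBO1 6. Whether these barcodes are nuclei or free RNA was not tested.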

How the results depend on the processing

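No paired analysis was possible because each condition had 1 library, and leaving out a replicate was not possible either. Counts of members are compared below, and the cause of a change was not tested unless stated. Where no background is given, a count is not read as more or less than the share over all genes. With classes taken from marker UMIs without clustering, 4 members led in neuron-like (background 1.23%), 1 in astrocyte-like and 0 in precursor-like nuclei, 0 were higher and 10 lower after processing in microglia-like nuclei, and 3 were higher and 17 lower in oligodendrocyte-like nuclei. At resolution 1.0, 1 member led in precursor-like nuclei, 0 were higher in microglia-like nuclei, and 3 were higher and 12 lower in oligodendrocyte-like nuclei. With at least 100 UMIs per gene, where fewer genes are counted, 1 led in oligodendrocyte-like nuclei, and the higher and lower counts were 0 and 1 in microglia-like and 0 and 0 in oligodendrocyte-like nuclei. With guidance genes kept in the clustering 0 members led in astrocyte-like nuclei, and 1 did with at least 500 genes per nucleus or with the mean of single nuclei. Scaling by the median of gene ratios left 1 in microglia-like nuclei. Unthinned, 34 members were seen in at least 10% of neuron-like nuclei (background 66.7%). Of 122 alternative values for such counts, 100 stayed within 1.5 times. With 5 counts added, the log2 ratios of EFNA2 (0.37) and EFNA3 (0.21) turned positive but stayed under 2-fold. Among alternatives chosen after seeing the data, counting cluster 5 as microglia-like left 2 higher and 6 lower, and nuclei microglia-like at both resolutions gave 0 higher and 4 lower. There EPHA5 (10.2-fold lower), ROBO2 (4.05-fold lower), SEMA3A (2.76-fold higher, 18 against 1 UMIs) and SEMA3C (6 against 0 UMIs) fell under the minimum of 20 UMIs and were not counted. Low UMI counts limit the within-class ratios.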

Other observations

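Endothelial-like nuclei were too few for the comparisons (6 before and 25 after processing). In the 25 post-processed ones SEMA6A had 37 UMIs in 15 nuclei, at 886 CPM (95% Poisson interval 624 to 1221), and EPHA4, a receptor of class A and B ephrins, had 16 UMIs in 11 nuclei, at 383 CPM (219 to 622). EFNA4 had 7 UMIs and EFNA1, an ephrin known from endothelium, 5 UMIs. Among the 41755 UMIs of these nuclei PLXNA4 had 4, ROBO1 and UNC5C 2 each and EPHA6 1, and INPP5D, a microglial gene, had 37 UMIs in 13 nuclei. The part of RNA from other cells in these values was not tested. The 6 pre-processed nuclei held 12 UMIs of SEMA6A.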
